A study of Mus musculus with 5 samples.

Results

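Nuclei with neutrophil genes were picked out of mouse liver by a marker gate in 5 single-nucleus RNA-seq (snRNA-seq) libraries, and 122 of 53198 nuclei passed it. A nucleus passed when it had at least 1 UMI (unique molecular identifier, a count of 1 captured RNA molecule) of at least 2 of the 6 genes S100a8, S100a9, Retnlg, Csf3r, Cxcr2 and Mmp9. It also had to have 0 UMIs of Hnf4a, Ptprb, Pkhd1, Col3a1, Clec4f, Cd3e and Cd79a, which mark hepatocytes, endothelial cells, cholangiocytes, stellate cells, Kupffer cells, T cells and B cells. The nuclei considered were those with at least 300 genes and under 20% mitochondrial UMIs. The livers came from male wild-type C57BL6/J mice, given regular chow (3 libraries) or an AMYLIN liver NASH diet (2 libraries), which brings on metabolic dysfunction-associated steatohepatitis (MASH). The MASH diet held 2% cholesterol, with fat at 40 kcal% and fructose at 20 kcal%, and was fed for 5 months, starting when mice were 10 to 12 weeks old. The labels do not say whether a library was made from 1 mouse, so a p-value over libraries measures only the spread between these libraries.

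Neutrophils are short-lived granulocytes that are made in the bone marrow, circulate in blood and enter inflamed tissue. Csf3r is the receptor for granulocyte colony-stimulating factor and Cxcr2 the receptor for the CXCL chemokines that draw neutrophils out of the blood. S100a8 and S100a9 form calprotectin, the most abundant protein complex of their cytosol, and Mmp9 is a gelatinase stored in their granules. Granule genes are transcribed in a fixed order during maturation in the marrow: those of primary granules (Mpo, Elane, Prtn3, Ctsg) in promyelocytes, those of secondary granules (Camp, Ngp, Ltf, Lcn2) in myelocytes and metamyelocytes, whereas mature neutrophils in blood and tissue have largely switched these genes off. In steatohepatitis, neutrophil infiltration is one of the histological features by which the disease is known.

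The promoters of the 4 genes on which the contrast between libraries below turned are shown, since S100a8 and S100a9 lie next to each other on chromosome 3 and Camp and Ngp both lie on chromosome 9. The windows are the 250 bases before the RefSeq start site in GRCm38.p6, on the strand of the gene. They are chr3:90668821-90669070 (S100a8, plus strand), chr3:90695722-90695971 (S100a9, minus strand), chr9:109849457-109849706 (Camp, minus strand) and chr9:110419558-110419807 (Ngp, plus strand). Capitals mark TATAAA, the core of a TATA box, and TTGCNNAA, a core of the site bound by C/EBP factors, searched on both strands. The 2 motifs cannot overlap each other.
S100a8: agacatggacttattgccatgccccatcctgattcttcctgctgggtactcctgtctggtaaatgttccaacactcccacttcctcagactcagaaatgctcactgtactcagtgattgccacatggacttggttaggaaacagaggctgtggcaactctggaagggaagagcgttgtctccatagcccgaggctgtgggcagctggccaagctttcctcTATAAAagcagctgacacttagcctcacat
S100a9: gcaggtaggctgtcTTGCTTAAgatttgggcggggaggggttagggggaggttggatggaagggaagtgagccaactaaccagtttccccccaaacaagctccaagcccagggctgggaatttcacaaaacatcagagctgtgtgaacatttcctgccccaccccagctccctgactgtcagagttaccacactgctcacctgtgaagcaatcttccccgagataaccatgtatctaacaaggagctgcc
Camp: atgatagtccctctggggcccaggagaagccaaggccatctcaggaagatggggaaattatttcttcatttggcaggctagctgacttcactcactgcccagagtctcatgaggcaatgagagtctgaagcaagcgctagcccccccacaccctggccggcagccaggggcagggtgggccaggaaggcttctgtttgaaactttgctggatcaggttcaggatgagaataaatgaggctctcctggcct
Ngp: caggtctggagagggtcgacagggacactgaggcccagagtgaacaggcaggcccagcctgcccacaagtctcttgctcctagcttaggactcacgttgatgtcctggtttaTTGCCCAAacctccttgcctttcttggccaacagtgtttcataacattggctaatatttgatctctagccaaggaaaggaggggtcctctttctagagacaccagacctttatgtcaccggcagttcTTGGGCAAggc
The S100a8 window held TATAAA starting 30 bases before the start site, at position -30. The S100a9 window held TTGCTTAA at position -236, the Ngp window TTGCCCAA at -138 and, read on the opposite strand, a second match ending near the start site (printed TTGGGCAA, at -11), and the Camp window neither motif. Of 32851 promoter windows of this length, 12.4% held TATAAA and 9.56% held TTGCNNAA, so the matches are a description of these windows.

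The gate took 88 nuclei in chow replicate 1, 2 in chow replicate 2, 12 in chow replicate 3, 15 in MASH replicate 1 and 5 in MASH replicate 2. The share of the nuclei kept was 1.04% in chow replicate 1 (95% exact binomial interval 0.836 to 1.28, 8450 nuclei). It was 0.149% in MASH replicate 1 (0.0835 to 0.246, 10057 nuclei) and 0.110% in chow replicate 3 (0.0568 to 0.192, 10925 nuclei). It was 0.0445% in MASH replicate 2 (0.0144 to 0.104, 11237 nuclei) and 0.0160% in chow replicate 2 (0.00193 to 0.0577, 12529 nuclei). In that order the interval of chow replicate 1 lay above all others, while each neighbouring pair among the other libraries overlapped. These intervals cover counting error only.

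**Figure D1:**
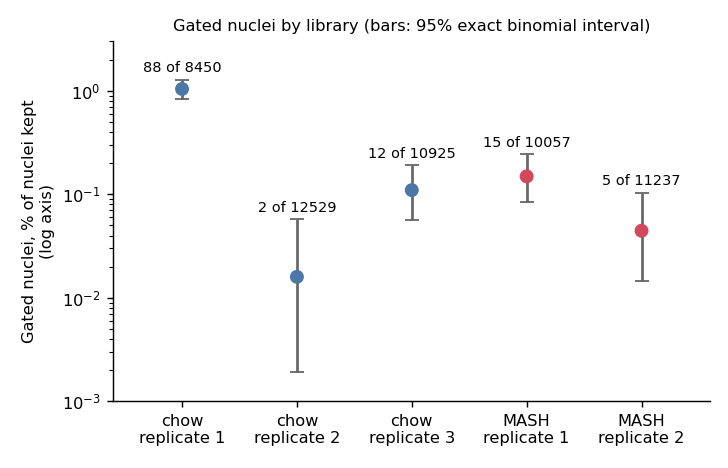
Share of nuclei that passed the neutrophil gate in each library, in percent of the nuclei kept on a log axis, with chow in blue and MASH in red. Chow replicate 1 sits at 1.04%, and the other 4 libraries lie between 0.0160% and 0.149% with chow and MASH interleaved.

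The question the design puts is whether the share differed between the diets. The mean was 0.389% ± 0.567 (SD, n = 3) in chow and 0.0968% ± 0.0740 (SD, n = 2) in MASH, a difference of -0.29 percentage points, MASH minus chow. The groups overlapped and the difference was within the spread between libraries (exact permutation test over libraries, two-sided, p = 0.9, where 3 against 2 libraries allow no p below 0.1). Chow replicate 1 set its direction: without it the share was higher in MASH by 0.0339 percentage points (exact permutation p = 0.667). Per 100 immune nuclei, counting the gated nuclei and the other immune nuclei of the library, the gate took 31.0 in chow replicate 1, 1.61 and 4.8 in chow replicates 2 and 3, and 1.15 and 0.452 in the MASH libraries. The other immune nuclei had a UMI of Ptprc, the CD45 gene, and none of Hnf4a, Ptprb, Pkhd1 or Col3a1, and numbered 196, 122 and 238 in chow and 1285 and 1101 in MASH. The other immune nuclei were thus more numerous in both MASH libraries than in any chow library.

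Since free RNA and mixed droplets can put gate genes into any nucleus, the same 6 genes were counted in nuclei that should lack them. At least 2 of the 6 genes had a UMI in 0.227%, 0.0908% and 0.188% of nuclei with an Hnf4a UMI in chow replicates 1, 2 and 3, and in 0.449% and 0.306% in MASH replicates 1 and 2, at median depths of 3574 to 5018 UMIs. Among nuclei with a Ptprb UMI and no Hnf4a UMI, chow replicates 1, 2 and 3 gave 0.129%, 0% and 0%, and the MASH libraries 1.21% and 0.244%. The exact upper bounds of both zeros, from 369 and 409 nuclei, were 0.995% and 0.898%. With each nucleus thinned to 500 UMIs, the share among Hnf4a-positive nuclei was 0.0453%, 0%, 0.0269%, 0.0345% and 0% in the same order of libraries. In MASH replicate 1, 1.15% of immune nuclei passed the gate, which lay above the upper bound of the Hnf4a-positive nuclei (0.767%) and within the interval of the Ptprb-positive nuclei (0.556% to 2.29%). In MASH replicate 2 it was 0.452%, within the intervals of both (0.140% to 0.579% and 0.0502% to 0.710%). Thinned to 500 UMIs, the MASH shares with at least 2 gate genes were 0.462% and 0.362% of immune nuclei, against 0.270% and 0% of Ptprb-positive nuclei, and the chow shares of immune nuclei were 30.6%, 0.806% and 4.8%. At equal depth the MASH shares were thus higher in value than those of both classes, and these differences were not tested. The immune nuclei here include every gated nucleus, but only 22 of 88, 2 of 2, 8 of 12, 11 of 15 and 2 of 5 had a Ptprc UMI. In every library the gate itself could thus add nuclei to this class, and not to the Hnf4a-positive or Ptprb-positive classes. This raises the immune shares, so the comparison cannot decide how far they exceed the background. In chow replicates 1 and 3, at least 2 gate genes had a UMI in 31.0% and 5.6% of immune nuclei. These shares lay above the upper bounds of the Hnf4a-positive nuclei (0.416% and 0.315%) and of the Ptprb-positive nuclei (0.715% and 0.898%).

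The label was compared with the markers nucleus by nucleus. The gate genes chose the nuclei, so their presence is a description and no support for the label. All 88 nuclei of chow replicate 1 and 11 of 12 in chow replicate 3 carried both S100a8 and S100a9. In chow replicate 3 all 12 also carried Csf3r, 9 carried Cxcr2, and none had a UMI of the macrophage list (Cd5l, Timd4, Vsig4, Marco, Adgre1, C1qa, C1qb, C1qc and Mertk). In MASH replicate 1, 9 of 15 carried both S100 genes, 3 carried neither, and 6 had a macrophage-list UMI, among them 3 with both S100 genes. In MASH replicate 2 only 1 of 5 nuclei carried both S100 genes, 3 carried neither, and these passed on Csf3r with Cxcr2. Csf3r alone also had a UMI in 8.3% to 15.1% of the other immune nuclei, whereas S100a8, S100a9, Retnlg and Cxcr2 each had one in at most 0.8%, although gated nuclei are by definition not among the other immune nuclei. Of the genes that the gate did not use, the macrophage list had a UMI in 6 of 88 gated nuclei of chow replicate 1, 0 of 12 of chow replicate 3, 6 of 15 of MASH replicate 1 and 3 of 5 of MASH replicate 2. The nuclei are therefore called by the gate.

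Just inside and outside the threshold the libraries also differed. With exactly 2 gate genes there were 22 nuclei in chow replicate 1, all with S100a8 and S100a9, 1 in chow replicate 2, 0 in chow replicate 3, 8 in MASH replicate 1 and 4 in MASH replicate 2. With 1 gate gene there were 59, 23 and 57 nuclei in chow and 156 and 189 in MASH, and in MASH that gene was Csf3r in 115 and 168 of them. All 6 gate genes together were found in 3 nuclei of chow replicate 1 and 5 of chow replicate 3, and in no other library. The 7 lineage genes removed a further 15, 8 and 16 nuclei with 2 or more gate genes in chow and 27 and 18 in MASH.

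Chow replicate 1 stood apart from the rest before any neutrophil gene was compared. Of its 88 gated nuclei, 46 had no UMI of 9 hepatocyte genes (Alb, Apoa1, Apoc1, Cps1, Fgb, Ttr, Cyp2e1, Serpina1c and Trf), RNA that all but 128 of the 8450 kept nuclei of that library held. No gated nucleus of another library lacked them. These genes made up a median of 0% of UMIs there (highest 3.0), against 6.21%, 5.95%, 1.4% and 1.49% in chow replicates 2 and 3 and MASH replicates 1 and 2. Among the other immune nuclei of chow replicate 1, 4 of 196 lacked them. Ribosomal protein genes, whose mRNA is mainly cytoplasmic, made up a median of 6.81% of UMIs in the gated nuclei of chow replicate 1 and 0.742% to 1.82% in the other libraries. Malat1, a long noncoding RNA kept in the nucleus, made up 0.471% and 4.62% to 10.9%. The gated nuclei of chow replicate 1 were small, with a median of 673 UMIs and 387.5 genes, and 28 of the 88 had 300 to 349 genes. This depth was not particular to that library, with medians of 680.5 UMIs in chow replicate 3 and 673 in MASH replicate 2. The medians were 1041.5 UMIs in chow replicate 2 and 1289 in MASH replicate 1. A further 56 barcodes of that library met all gate criteria but the minimum of 300 genes, with a median of 265.5 genes and 25.8% of UMIs from S100a8 and S100a9. The other libraries had no such barcode. Whether these barcodes came from the liver of that library was not tested. The part of these differences in the results below was not tested, and results are given with and without this library.

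**Figure D2:**
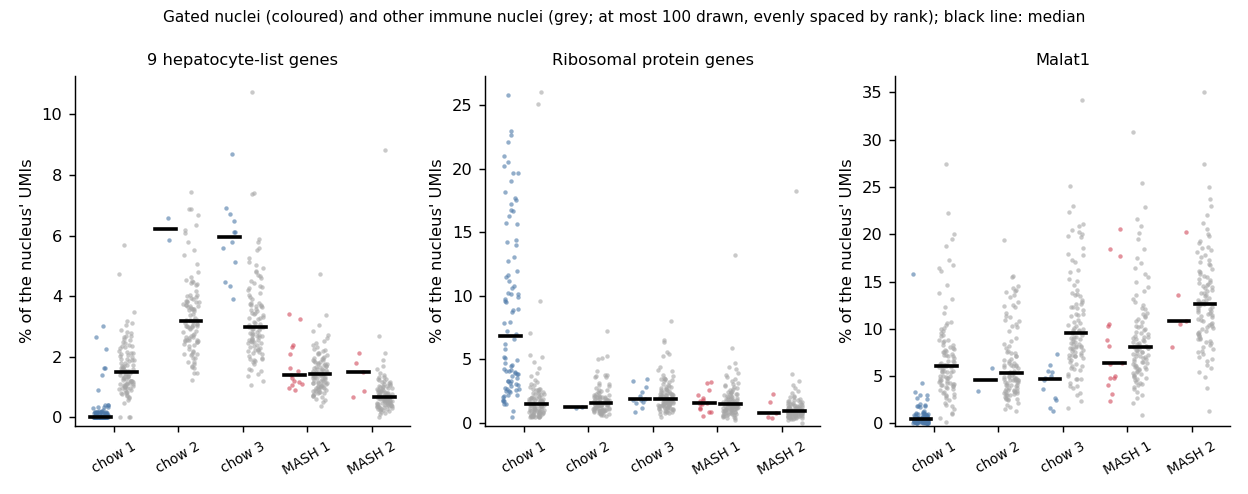
Percent of each nucleus' UMIs from 9 hepatocyte genes (left), ribosomal protein genes (middle) and Malat1 (right), with gated nuclei in blue (chow) or red (MASH), other immune nuclei of the same library in grey and the median as a black line. The gated nuclei of chow replicate 1 lie lowest for hepatocyte genes (median 0%) and Malat1 (0.471%) and highest for ribosomal protein genes (6.81%).

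Levels of the gate genes were a consequence of the rule and are given as a description. S100a8 (ENSMUSG00000056054, GRCm38 chromosome 3, 90668978 to 90670035) stood at 61145 CPM in the gated nuclei of chow replicate 1 (counts per 1000000 UMIs summed over these nuclei, 95% exact Poisson interval 59345 to 62986). It was at 960, 5669, 1644 and 216 CPM in chow replicates 2 and 3 and MASH replicates 1 and 2. S100a9 (ENSMUSG00000056071, chromosome 3, 90692632 to 90695721) stood at 85903 CPM in chow replicate 1 (83767 to 88079), and at 1440, 10894, 2603 and 108 CPM in the others. Per nucleus, the pair together took a median of 15.6% of UMIs in chow replicate 1 (range 0.160 to 30.4) and 1.32% in chow replicate 3 (0.164 to 3.19). In MASH replicate 1 the median was 0.266% (0 to 4.85), and in MASH replicate 2 it was 0%. Of the S100a8 UMIs in kept nuclei, 95.4% lay in gated nuclei in chow replicate 1, 31.9% in chow replicate 3, 29.0% in MASH replicate 1 and 9.52% or less in the other libraries. Retnlg (chromosome 16, 48872621 to 48874496), which encodes a resistin-like secreted protein of neutrophils, was found in 58 of 88 nuclei of chow replicate 1, 5 of 12 of chow replicate 3 and 5 of 15 of MASH replicate 1, and in none elsewhere.

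Csf3r and Cxcr2, the receptor genes of the gate, were found in a smaller share of the gated nuclei of chow replicate 1 than of chow replicate 3. Csf3r (chromosome 4, 126024550 to 126044440) stood at 308 CPM in chow replicate 1, in 16 of 88 nuclei, and at 3891 CPM in chow replicate 3, in 12 of 12. The MASH libraries gave 639 and 1079 CPM, in 10 of 15 and 5 of 5 nuclei. Cxcr2 (chromosome 1, 74153989 to 74161246) stood at 406 CPM in chow replicate 1 and 1556 CPM in chow replicate 3, in 18 of 88 and 9 of 12 nuclei. It had 0 UMIs in chow replicate 2 and stood at 228 and 431 CPM in MASH, in 4 of 15 and 4 of 5 nuclei. In chow replicate 3, with comparable depth per nucleus (median 680.5 UMIs), the receptors were therefore found more widely and the S100 genes at a lower level than in chow replicate 1. Over whole libraries, all kept nuclei included, Csf3r was higher in MASH (13.2 and 15.5 CPM) than in chow (4.12, 1.52 and 3.41), while only 3.27% and 1.75% of its UMIs in MASH came from gated nuclei.

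**Figure D3:**
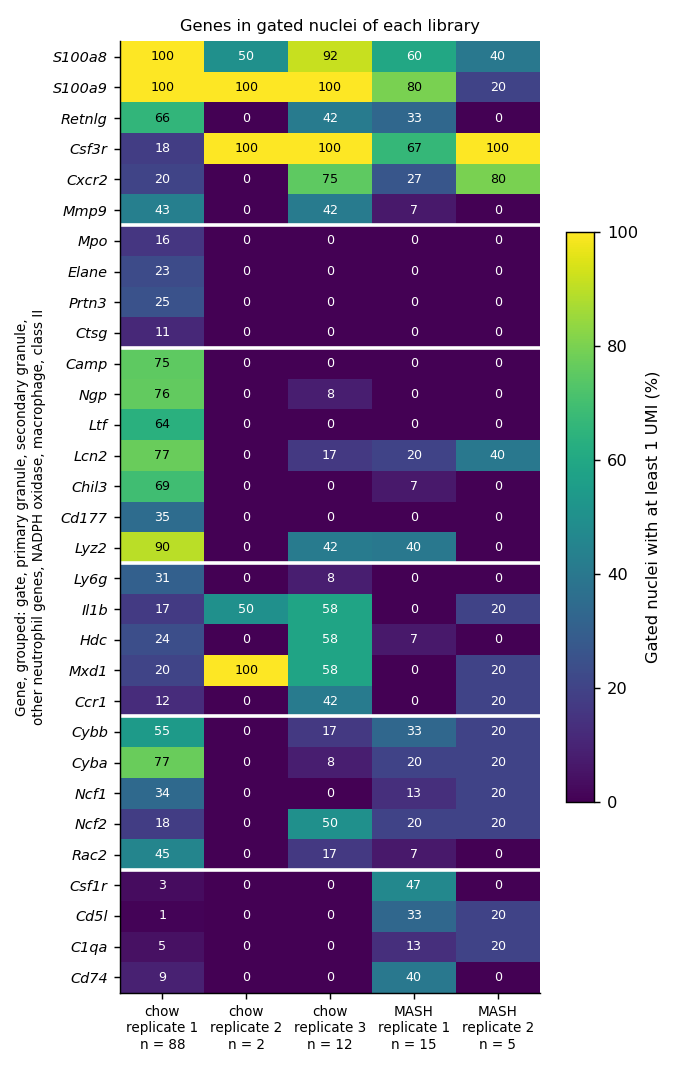
Percent of gated nuclei with at least 1 UMI of each gene (rows, grouped by role) in each library (columns, with the number of nuclei). Camp, Ngp and Ltf stand at 64% to 76% in chow replicate 1 and at 0% to 8% elsewhere, whereas Csf3r stands at 18% in chow replicate 1 and at 67% to 100% elsewhere.

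Granule genes separated chow replicate 1 from the other libraries. Camp, which encodes the antimicrobial peptide cathelicidin, had 1828 UMIs in 66 of 88 gated nuclei of chow replicate 1 (25583 CPM) and 0 UMIs in gated nuclei of the other 4 libraries. Ngp, which encodes neutrophilic granule protein, had 1730 UMIs in 67 nuclei (24212 CPM) and 1 UMI elsewhere, in chow replicate 3. Ltf, the gene of lactoferrin, had 409 UMIs in 56 nuclei (5724 CPM) and 0 elsewhere. Lcn2, the iron-scavenging lipocalin that hepatocytes also make in inflammation, stood at 11098 CPM in chow replicate 1, 222 in chow replicate 3, 137 and 216 in MASH and 0 in chow replicate 2. With 12 nuclei in chow replicate 3, a count of 0 left an exact upper bound of 410 CPM for Camp and Ltf, below their levels in chow replicate 1. The corresponding bound was 168 CPM in MASH replicate 1 and 398 CPM in MASH replicate 2. All 16 granule genes of the list together reached 92242 CPM in chow replicate 1, against 480 and 2668 CPM in the other chow libraries, 868 and 216 CPM in MASH and 233 to 1144 CPM in other immune nuclei. These are single libraries, and differences between them had no replicate check.

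Within chow replicate 1, the gated nuclei differed in their granule genes. Of 88 nuclei, 56 had UMIs of 5 or 6 of Camp, Ngp, Ltf, Lcn2, Chil3 and Cd177, 17 had 1 to 4 and 15 had none. Retnlg was found in 48 of the 56, 6 of the 17 and 4 of the 15. Primary granule genes were found in 25 of the 88, with Prtn3 in 22 nuclei, Elane in 20, Mpo in 14 and Ctsg in 10, and with 0 UMIs of all 4 in gated nuclei of the other libraries. Genes of dividing cells (Mki67, Top2a, Cenpf, Ube2c and Ccnb2) were found in 37 of the 88 (42.0%), 29 of these among the 56 nuclei with most granule genes. In the other libraries they were found in 0 of 2, 0 of 12, 1 of 15 and 1 of 5, and in 2.94% to 8.16% of other immune nuclei. Ly6g, the surface protein by which mouse neutrophils are sorted, was found in 27 of 88 nuclei of chow replicate 1, 1 of 12 of chow replicate 3 and none elsewhere.

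Granule genes were found both in nuclei with and in nuclei without a hepatocyte-list UMI. Among the 46 nuclei of chow replicate 1 without a hepatocyte-list UMI, Camp was found in 39, Ngp in 38, Ltf in 33 and primary granule genes in 17. Among the 42 nuclei with such a UMI, Camp was found in 27, Ngp in 29, Ltf in 23 and primary granule genes in 8. Dividing-cell genes were found in 24 of the 46 and 13 of the 42. Ribosomal protein genes had medians of 8.93% and 5.69% and Malat1 of 0.381% and 0.537%, so both groups of nuclei had values unlike those of the other libraries. The split does not set apart nuclei with the hepatocyte share of other libraries, since 82 of the 88 had under 1% of UMIs from these genes. Ptprc, which was not part of the gate, was found in 22 of the 88 (25%), and in 2 of 2, 8 of 12, 11 of 15 and 2 of 5 gated nuclei elsewhere.

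The gated nuclei of chow replicate 3 had few granule UMIs, and several genes of signaling were found in more of them than in chow replicate 1. Il1b (chromosome 2, 129364570 to 129371139), the inflammatory cytokine interleukin-1 beta, stood at 1779 CPM in 7 of 12 nuclei, against 193 CPM in other immune nuclei of that library. In chow replicate 1 it stood at 728 CPM in 15 of 88 nuclei, against 31.7 CPM in other immune nuclei, and in MASH replicate 1 it had 0 UMIs. Hdc, which makes histamine, was found in 7 of 12 nuclei of chow replicate 3 (1000 CPM) and 21 of 88 of chow replicate 1 (392 CPM). Mxd1, a MYC-antagonist of differentiated myeloid cells, was found in 7 of 12 (1445 CPM) and 18 of 88 (336 CPM). Ccr1, a chemokine receptor, was found in 5 of 12 nuclei of chow replicate 3. Each of these levels exceeded that of other immune nuclei in the same library, but rests on at most 16 UMIs of a gene in chow replicate 3.

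Markers of other cell types were counted in the gated nuclei as a description. The gate removed nuclei with a UMI of Clec4f, Cd3e or Cd79a, while the other immune nuclei kept them. Lower values of the macrophage, T and NK and B lists in gated nuclei were thus partly set by the rule. The macrophage list was found in 6.82% of gated nuclei in chow replicate 1, 0% in chow replicates 2 and 3, 40% in MASH replicate 1 and 60% in MASH replicate 2, beside 42.3% to 64.4% of other immune nuclei. In MASH replicate 1, Csf1r, the macrophage growth factor receptor, was found in 7 of 15 nuclei and Cd5l, a Kupffer cell gene, in 5 of 15. Timd4 and Marco were at 0 in that library's gated nuclei. The monocyte list was found in 72.7%, 50% and 25% of gated nuclei in chow replicates 1, 2 and 3 and in 73.3% and 80% in MASH, beside 66.3% to 74.5% of other immune nuclei. In chow replicates 2 and 3 this was Fn1 alone. The summed level of the list was 977 to 1748 CPM in nuclei with an Hnf4a UMI and 976 to 1818 CPM in other immune nuclei. It therefore did not tell monocytes from hepatocytes here. Ly6c2, a monocyte gene that neutrophil precursors also express, was found in 48 of 88 nuclei of chow replicate 1 and none elsewhere. The list of lipid-associated macrophages (Gpnmb, Trem2, Spp1, Cd9, Mmp12 and Lgals3) was found in 68.2%, 0% and 25% of gated nuclei in chow and 73.3% and 80% in MASH, beside 12.2%, 11.5%, 20.6%, 61.6% and 70.8% of other immune nuclei. In chow replicate 1 this was mainly Lgals3, which encodes galectin-3, in 53 of 88 nuclei, and Cd9, a tetraspanin, in 31. The T and NK list reached 9.09% in chow replicate 1 and the B list 5.68%, both below the other immune nuclei of that library (19.9% and 17.3%). Igkc had 327 UMIs in gated nuclei of chow replicate 1, of which 306 lay in 1 nucleus. Platelet genes were found in 12 of 88 nuclei of chow replicate 1, 1 of 15 of MASH replicate 1 and none elsewhere.

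**Figure D4:**
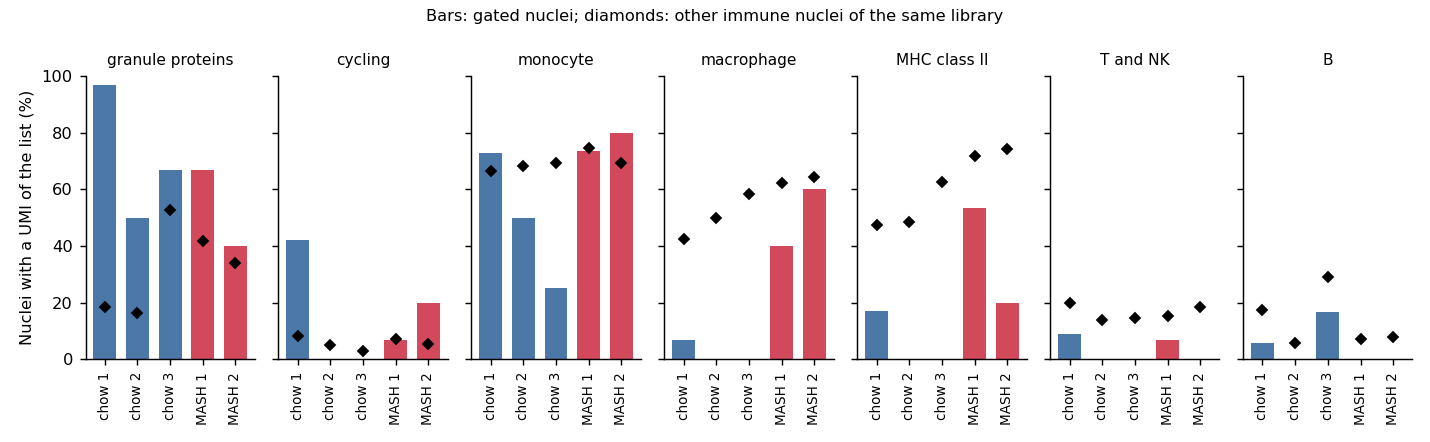
Percent of gated nuclei (bars, blue for chow and red for MASH) and of other immune nuclei of the same library (diamonds) with at least 1 UMI of a gene list. The macrophage list reaches 40% and 60% of gated nuclei in MASH and at most 6.82% in chow, and the dividing-cell list 42.0% in chow replicate 1. The other immune nuclei kept nuclei with a UMI of Clec4f, Cd3e or Cd79a, which the gate removed.

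Which other genes set the gated nuclei apart from other immune nuclei was tested on UMI counts summed per library, in the 3 libraries with at least 10 gated nuclei (chow replicates 1 and 3 and MASH replicate 1). Of 3897 genes tested, 6 were called higher (percent of tested genes: 0.154) and 0 lower at an adjusted p under 0.05 (edgeR quasi-likelihood test with the library as a block, Benjamini-Hochberg). At an unadjusted p under 0.05 there were 109 genes higher and 186 lower, and DESeq2 called 31 higher and 1 lower. The 14 genes that the gate or the comparison used were left out. The median log2 fold change over all genes tested was -0.41, and 265 genes (6.80%) were higher and 1201 (30.8%) lower in all 3 libraries. Sums of gated nuclei held 71453, 8996 and 21901 UMIs, against 347345, 403785 and 2337432 in other immune nuclei, so the test could see large differences only. A gene without a UMI in a gated sum counts as lower there. The number of genes lower in all 3 libraries therefore depends on depth and is no measure of lost expression. Without MASH replicate 1, whose share was not separated from that of its Ptprb-positive nuclei, 4 genes were called, none of them among the 6. Without chow replicate 1 there were 8 called, 4 of them among the 6, and without chow replicate 3 there were 3, 1 of them among the 6.

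The called genes included Slfn4, Slpi, S100a11 and S100a6, from lists of neutrophil and interferon genes, and Pi16 and Igf1r. The filter on low counts asked for a minimum level in several sums, and all 6 passed it only through the gated sums. That they were higher in all 3 libraries was thus fixed by the filter and is a description. With no filter on low counts, 4 of the 6 were called by edgeR. Slfn4 (ENSMUSG00000000204, chromosome 11, 83175186 to 83190216), a schlafen family gene of myeloid cells that responds to interferon, stood at 196, 222 and 365 CPM in gated nuclei of chow replicates 1 and 3 and MASH replicate 1. In other immune nuclei it stood at 8.64, 2.48 and 13.3 CPM, which gave a log2 difference (gated minus other immune nuclei) of 4.96 (SE 0.90, by edgeR adjusted p = 0.000147). The gated nuclei were higher in all 3 libraries, on 14, 2 and 8 UMIs. Slfn4 was no longer called by edgeR without MASH replicate 1 (5.16, adjusted p = 0.202).

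Slpi (ENSMUSG00000017002, chromosome 2, 164354070 to 164389095), an inhibitor of neutrophil elastase, stood at 784, 333 and 91.3 CPM against 20.2, 9.91 and 6.85 CPM. By edgeR the log2 fold change was 4.8 (SE 1.02, adjusted p = 0.00563), in a direction that the filter on low counts had fixed. In MASH replicate 2, which was not part of the test, it stood at 216 CPM in 2 of 5 nuclei. The edgeR call was lost without chow replicate 3 (adjusted p = 0.0740) and without MASH replicate 1 (adjusted p = 0.569).

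S100a11 (chromosome 3, 93520488 to 93526287) and S100a6 (chromosome 3, 90612882 to 90624181) encode calcium-binding proteins from the same family as calprotectin. Both were higher in all 3 libraries, which the filter on low counts had fixed. S100a11 stood at 1903, 1223 and 183 CPM in gated nuclei and 31.7, 22.3 and 38.1 CPM in other immune nuclei, and edgeR gave a log2 difference of 4.71 (SE 1.06, adjusted p = 0.00790). S100a6 stood at 3429, 667 and 183 CPM against 31.7, 39.6 and 37.6 CPM, and edgeR gave 4.23 (SE 1.05, adjusted p = 0.0392). For both genes chow replicate 1 was highest and MASH replicate 1 lowest. Neither stayed called when any 1 of the 3 libraries was left out, with log2 fold changes of 3.50 to 5.72 for S100a11 and 2.66 to 5.35 for S100a6.

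Pi16 (chromosome 17, 29317680 to 29330593), which encodes a secreted peptidase inhibitor, stood at 84.0, 445 and 91.3 CPM on 6, 4 and 2 UMIs, against 5.76, 0 and 5.13 CPM. Its log2 fold change was 5.03 (SE 1.11, adjusted p = 0.00787 by edgeR), and it was no longer called without chow replicate 3 (4.28, adjusted p = 0.628). Igf1r (chromosome 7, 67952827 to 68233668), the receptor for insulin-like growth factor 1, stood at 70.0, 1334 and 183 CPM against 23.0, 17.3 and 17.1 CPM, and edgeR gave a log2 difference of 3.76 (SE 0.85, adjusted p = 0.00790). Chow replicate 3 stood highest for both genes. Igf1r lost its edgeR call without chow replicate 3 (2.84, adjusted p = 0.609) and without MASH replicate 1 (3.85, adjusted p = 0.852).

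**Figure D5:**
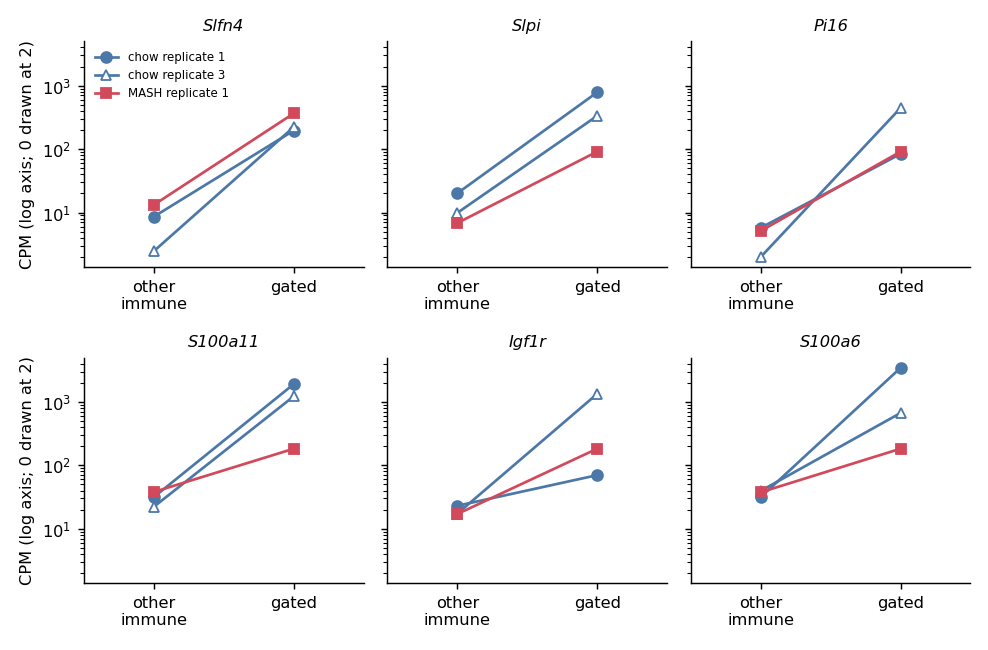
CPM on a log axis in other immune nuclei (left of each panel) and gated nuclei (right) of the 3 libraries tested, for the 6 genes called, with a line per library and a level of 0 drawn at 2. Every line slopes upward, from at most 39.6 CPM in other immune nuclei to at least 70.0 CPM in gated nuclei. These 6 genes passed the filter on low counts only through the gated sums, which fixed this direction.

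Described by their lists, the other neutrophil genes mostly lay above the median of all genes without passing the test. Only genes with enough counts in several sums were tested, so the granule genes found in chow replicate 1 alone, Camp, Ngp and Ltf among them, were not. A gene low in every other immune sum could be tested only if high in every gated sum, and was then bound to lie above 0. Of 10 tested surface receptor and adhesion genes, out of 25 in the list, all had a log2 fold change above 0 and none was called (median 1.86, against -0.41 over all genes). Itgb2, the integrin subunit CD18, had a log2 difference of 1.43 (SE 0.84, adjusted p = 0.714 by edgeR). Of 5 tested NADPH oxidase genes, the enzyme of the oxidative burst, all lay above 0 and none was called (median 1.57). For its membrane subunits Cyba and Cybb the values were 1.86 (SE 1.11) and 1.05 (SE 1.03), and Cybb was -0.41 without chow replicate 1. Cyba stood at 1763 CPM against 80.6 CPM in chow replicate 1 and at 111 CPM against 116 CPM in chow replicate 3.

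Of 12 tested genes of the list of other cytosolic and secreted neutrophil proteins, 3 were called higher and all lay above 0 (median 1.59). Wfdc21 and Hp, a secreted protein and haptoglobin, were not called (log2 fold changes 1.82, SE 0.95, and 0.98, SE 0.83), and both are also found in hepatocytes. Among lipid mediator and metabolism genes, 4 of 12 were tested and none was called, 2 on each side of 0. Alox5ap, which presents arachidonic acid for leukotriene synthesis, stood at 1134, 333 and 137 CPM against 25.9, 49.5 and 27.4 CPM (log2 fold change 3.51, SE 1.06, adjusted p = 0.185 by edgeR). It was called by DESeq2 (adjusted p = 0.0167). G0s2, an inhibitor of lipolysis, had a value of -0.53 (SE 0.93).

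Of 5 tested cytokine and chemokine genes none was called and 4 lay above 0 (median 1.59). Il1b had a log2 difference of 2.82 (SE 1.07, adjusted p = 0.480 by edgeR), and Vegfa, the vascular growth factor, of -0.34 (SE 0.87). Of 6 tested interferon-response genes Slfn4 alone was called and 5 lay above 0 (median 0.85). The membrane proteins Ifitm2 and Ifitm3 had values of 1.66 (SE 1.06) and 0.60 (SE 1.07), and Ifitm3 was -1.06 without chow replicate 1. Of 12 tested transcription regulators, 8 lay above 0 and none was called (median 0.94). Junb and Cebpb, of the AP-1 and C/EBP families, had values of 0.85 (SE 0.85) and -0.07 (SE 0.88). Of 4 tested survival and death genes none was called and the values lay on both sides of 0 (median 0.16), with Mcl1, on which neutrophil survival depends, at 0.86 (SE 0.87) and Xiap, an inhibitor of caspases, at -1.09 (SE 0.88).

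Of the 2 granule genes tested, Lcn2 had a log2 difference of 2.26 (SE 1.09, adjusted p = 0.599 by edgeR) and Lyz2, the lysozyme of myeloid cells, of 1.34 (SE 0.95, adjusted p = 0.747). Lyz2 stood at 13002 CPM against 337 CPM in chow replicate 1, 778 against 911 CPM in chow replicate 3 and 594 against 417 CPM in MASH replicate 1. Without chow replicate 1 the log2 fold change of Lyz2 was -0.31.

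All 6 tested genes of antigen presentation by MHC class II lay below 0 and none was called (median -1.34). Cd74, the invariant chain, stood at 462 CPM against 815 CPM in chow replicate 1, at 0 against 1164 CPM in chow replicate 3 and at 776 against 785 CPM in MASH replicate 1 (log2 fold change -1.18, SE 0.93). H2-Ab1, a class II beta chain, stood at 168, 0 and 411 CPM against 403, 480 and 377 CPM (log2 fold change -1.06, SE 0.93). The class II list was found in 15 of 88 gated nuclei in chow replicate 1, 0% in chow replicates 2 and 3, 53.3% in MASH replicate 1 and 20% in MASH replicate 2, beside 47.4% to 74.2% of other immune nuclei. All 7 tested macrophage genes also lay below 0 (median -2.14), and none was called. The other immune nuclei kept nuclei with a UMI of Clec4f, Cd3e or Cd79a, which the gate removed. This sets part of the fall of macrophage genes and may set part of that of class II genes. Of 4 tested genes of the lipid-associated macrophage list, 3 lay above 0 and none was called (median 1.51).

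A comparison of the diets within gated nuclei, and of the gated-to-immune difference between the diets, was not made. The minimum set for it was 20 gated nuclei (or, as an alternative, 10) in 2 libraries of each diet, and MASH replicate 1 alone reached 10 among the MASH libraries. A minimum of 5 would have left 2 libraries of each diet and was not run. The values per library above stand in place of such a test.

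A list of acute-phase genes and a list of neutrophil attractant and growth factor genes were read in nuclei with an Hnf4a UMI, to describe each liver beside the share. All 15 acute-phase genes of the list, secreted or stress proteins that hepatocytes make in inflammation, were highest in chow replicate 3. Saa1 stood there at 6688 CPM, against 760 and 120 CPM in chow replicates 1 and 2 and 102 and 105 CPM in MASH. Serpina3n stood at 3001 CPM, against 239, 121, 46.0 and 52.6 CPM, and Lcn2 at 369 CPM, against 4.94, 6.72, 46.6 and 39.9 CPM. Cxcl1, a ligand of Cxcr2, stood at 2441 CPM in chow replicate 3, 963 CPM in chow replicate 1, 157 CPM in chow replicate 2 and 109 and 101 CPM in MASH. Of the 12 attractant and growth factor genes, 10 had a UMI in these nuclei, and Csf2 and Il17a had none. Of the 10, 5 were highest in MASH replicate 1, 2 in chow replicate 3 and 1 in each of the other libraries. Several of these ranks rest on few UMIs: Csf3 on 1 in MASH replicate 2 and Il6 on 9 in chow replicate 3. In MASH replicate 1, Ccl3, Cxcl5 and Il1b rest on 25, 28 and 47 UMIs. The gene highest in chow replicate 2 was Lifr, a receptor gene. Cxcl2, another ligand of Cxcr2, stood at 10.8 CPM in MASH replicate 1, 3.43 CPM in MASH replicate 2 and 3.94, 2.17 and 5.43 CPM in chow. These are 5 libraries, and the relation was not tested.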

How the data were processed

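The deposited files hold raw UMI counts per gene and barcode, which the authors made with Cell Ranger 8.0.1 from sorted nuclei (droplet-based 3-prime libraries). By the study's methods the reads were aligned to a GRCm38 (mm10) reference with intronic reads left out, which lowers the counts of every nucleus. The deposited matrices hold 32285 genes and no cell type names. They hold 57080 barcodes, and the libraries total 35612373 to 49137377 UMIs. Gene coordinates came from GENCODE M21 (GRCm38, 99.6% of genes found by identifier) and promoter sequences from RefSeq (GRCm38.p6).

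Barcodes with at least 300 genes, as in the study, and under 20% mitochondrial UMIs were kept. The gate was applied to raw counts, and members and gene lists were chosen with earlier results of these data known. No doublet caller was run: nuclei with lineage genes were left out by the gate. UMI counts of gated and of other immune nuclei were summed per library (at least 10 of each) and compared with edgeR 4.0.16 in R 4.3.3 (TMM, filterByExpr, quasi-likelihood test, library as block, Benjamini-Hochberg over all genes tested, called at 0.05), after a check on simulated data. The simulated counts had a fixed spread and no difference between libraries other than depth. That check therefore does not cover error rates at the spread of the real sums. A standard error was obtained by dividing the log2 difference by the root of its F value. CPM values are unscaled. Named are the gate genes, the called genes that differed in 1 direction in every library tested and, of each list, up to 2 with the highest mean level that did not pass. Genes given by nucleus counts in single libraries, such as Hdc, Mxd1 or Camp, come from the same lists and were picked after their values were seen. Shares were compared over libraries by an exact permutation test. Alternatives covered the gate, depth, filters, normalization, block, test (DESeq2 1.42.0) and each library left out. The results of 1 listed gene are not reported here.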

Additional observations from a re-analysis of the deposited data

How the results depend on the processing

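The exact permutation test over 3 against 2 libraries allows no p below 0.1. The difference in share between the diets, MASH minus chow, kept its direction under 9 of 10 other gates, denominators, depths and filters. It turned to 0.0124 percentage points when only gated nuclei with at least 1% of UMIs from the hepatocyte list were counted, an alternative chosen after seeing the data, as was the one with no minimum of genes. Leaving out each library in turn gave -0.479 to 0.0339, positive without chow replicate 1. With the replicate block, over replicates 1 and 2, it was -0.43 (exact sign-flip p = 1). The deviations of same-numbered libraries had correlations of -0.22 and -0.28 over 9263 genes. With only 2 MASH libraries their deviations mirror each other, so this check cannot tell whether the numbers are pairs. The study names no block for these libraries, and the numbers were not taken as pairs.

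The number of genes called was 32 with DESeq2, 26 with no filter on low counts, 19 against all Ptprc-positive nuclei, 11 for gated nuclei with a Ptprc UMI and 2 with libraries of at least 5 gated nuclei. It was 3 to 8 with a library left out. With at least 3 gate genes 9 were called, none of them among the 6. In that setting MASH replicate 1 held 7 gated nuclei, below the minimum of 10, so only chow replicates 1 and 3 were compared. The setting with a Ptprc UMI compared only chow replicate 1 and MASH replicate 1. The setting with at least 5 gated nuclei added MASH replicate 2. These 3 settings thus changed the libraries as well as the rule. The cause of these shifts was not tested. Among named genes that did not pass, the sign turned for Cd74 in gated nuclei with a Ptprc UMI (0.047), G0s2 without the library block (0.096) and Cebpb with DESeq2 (0.036) and RLE normalization (0.0069). With a library left out, Lyz2 ranged from -0.31 to 3.28, Cybb from -0.41 to 2.15, G0s2 from -1.92 to 0.012, Ifitm3 from -1.06 to 1.56 and Cebpb from -0.73 to 0.36. The tests with at least 20 gated nuclei per library and with 6 more lineage genes excluded could not be fitted, and those between diets within gated nuclei were not run, since too few libraries reached the minimum set.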

Other observations

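Gated nuclei were not the only barcodes of chow replicate 1 without hepatocyte RNA. Of its 8450 kept nuclei, 128 had no UMI of the 9 hepatocyte-list genes, of which 46 passed the gate and 82 did not. The count was 0 in chow replicates 2 and 3 and in MASH replicate 1, and 17 in MASH replicate 2, none of them gated. The 82 had a median of 625.5 UMIs, of which ribosomal protein genes took 24.9%, against 1.02% in the 17 of MASH replicate 2. Primary granule genes were frequent among the 82, with Prtn3 in 28, Mpo in 27, Elane in 24 and Ctsg in 23. The dividing-cell genes Top2a and Mki67 were found in 26 and 25, Col1a1, a collagen gene of fibroblasts and bone-forming cells, in 18, Car2 and Car1, carbonic anhydrases of the red cell lineage, in 17 and 10, and Pf4, a platelet gene, in 11. In the 17 barcodes of MASH replicate 2, Col1a1 was found in 2 and the other genes named in none. These genes were chosen after the barcodes had been seen.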
